A study of Mus musculus with 2 samples.

Results

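The 10 genes described here code for the machinery that places, recognises and removes N6-methyladenosine (m6A) in RNA. They were taken by symbol from a list of writers, adaptors, readers and erasers, and all 10 were found among the 22556 genes of the count table. Messenger RNA came from the line iXist-ChrX-Dom, female (XX) embryonic stem cells (mESCs) of hybrid mouse origin, Dom/129S x Cast. A TetOn promoter stands in place of the endogenous Xist promoter on the Dom/129S allele, no doxycycline was given, and the time point was 0 h. The series held 1 group of 2 replicates, so no treatment was compared, and its purpose was to rank genes by their expression before Xist is switched on. The libraries came from 1 engineered clone grown with fibroblast feeders, which were removed by pre-plating. The labels do not say that the replicates were separate cultures, so differences between them may be technical.

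m6A is the most common internal modification of messenger RNA. METTL3 transfers the methyl group as a heterodimer with METTL14. WTAP and ZC3H13 hold the heterodimer in the nucleus, and RBM15 or RBM15B bring the complex to its target RNAs, among them Xist. YTH domain proteins bind the mark, and the dioxygenases ALKBH5 and FTO can remove it. In mESCs the pathway is known for its part in the exit from pluripotency. In Xist RNA, m6A sites lie close to the A-repeat, which binds SPEN, a relative of RBM15 with the same SPOC domain.

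Replicate 1 held 23716499 counted fragments and replicate 2 held 20275749. A count of 0 would allow up to 3 counts, which is 0.126 counts per 1000000 (CPM) in replicate 1 and 0.148 CPM in replicate 2, for counting error only. The labels name the cell type as mESC to NPC, so markers were checked. All 8 of 8 ES cell markers had a mean of at least 10 transcripts per 1000000 (TPM, exonic length), with Nanog at 699 TPM. Among markers of other cells, 1 of 6 neural precursor genes (Vim, 187 TPM), 1 of 8 fibroblast genes (Fn1, 107 TPM) and 0 of 6 primitive endoderm genes reached 10 TPM. The neural markers Sox1 and Olig2 were at 0 in both libraries, and the fibroblast marker Col1a1 had 4 and 5 counts. The summed level of the fibroblast list was 116 TPM in replicate 1 and 117 TPM in replicate 2, and that of the ES cell list was 2639 and 1966 TPM. The libraries stood far apart at some ES cell markers, with Pou5f1 at 1129 and 142 counts (100 and 15.7 TPM) and Dppa5a at 566 and 72.1 TPM, genes named after their values were seen.

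The start regions of the member genes held more of the dinucleotide CG than the median start region of all genes. RefSeq start-site windows of 300 bases (250 before and 50 after the start, GRCm38.p6, which is the assembly of mm10) were at hand for 9 of the 10 members, 12 windows in all, and Mettl14 was not matched. They held 17 to 48 CG each. The 3 windows of Wtap overlap, as do the 2 of Zc3h13, so each gene was given 1 value, the median of its windows. The median over the 9 members was 24.5 CG, against 7 over 27025 genes (32851 windows) and 21 over 8950 genes (11255 windows) with a mean of at least 1 TPM. All 250 bases before the RefSeq starts of Rbm15 and Rbm15b lie in GENCODE exons, as do 174 or more in each Wtap window. Of all windows, 31.4% held 17 CG or more, and of those of genes at 1 TPM or above, 63.3% did. The GC content of the member windows ran from 52.0 to 80.3%, where the median of all windows was 52.7% and that of the windows of expressed genes 61%. The letters TATAAA, searched on both strands, were in 0 of the 12 member windows, in 13.6% of all windows and in 7.03% of those of expressed genes. The letters are a description and not a mapped promoter activity. The ratio of the eraser levels, given with the erasers, ran from 31.0 to 1.08 fold with the gene length used. Both erasers were picked for that range, but no link of sequence to level was tested. The sequences before their starts are shown here. They are the plus strand of chr8:91313275-91313524 with 18 CG and of chr11:60537433-60537682 with 14 CG, free of GENCODE exons, and capitals mark each CG.
Fto: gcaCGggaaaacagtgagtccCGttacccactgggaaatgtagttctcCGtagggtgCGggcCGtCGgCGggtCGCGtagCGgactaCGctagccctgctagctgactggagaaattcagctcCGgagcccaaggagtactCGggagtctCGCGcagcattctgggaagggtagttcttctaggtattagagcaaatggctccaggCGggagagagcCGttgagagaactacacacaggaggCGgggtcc
Alkbh5: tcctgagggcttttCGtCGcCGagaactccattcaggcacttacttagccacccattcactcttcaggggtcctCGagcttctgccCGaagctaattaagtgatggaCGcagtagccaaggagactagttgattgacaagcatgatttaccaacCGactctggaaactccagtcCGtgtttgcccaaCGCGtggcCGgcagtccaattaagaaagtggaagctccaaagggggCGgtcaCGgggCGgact

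Different gene lengths underlie the levels below. The main TPM uses the deposited length of a gene, which is its whole transcribed span with introns (span TPM), averaged over both replicates. The sources used here do not state which gene length the study took for its own TPM. A second TPM uses only the exonic bases inside that span (exonic TPM), and another only the exons of the main coding transcript inside it (main-transcript TPM). Introns are long in some members and short or absent in others, and spliced mRNA leaves few reads there. For Fto the span was 28.7 times its exonic length, and for the single-exon Rbm15b it was 1.00 times. Levels of the members are therefore given under each choice, and those of the other pathway genes on the exonic scale. The log2 ratios between replicates further below use counts and do not depend on length. The replicate values and SD of a TPM do, and Alkbh5 went from 130 to 120 CPM but from 100 to 103 span TPM.

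The catalytic pair of the writer complex was present at mean levels from 27.9 to 68.4 TPM over the 3 length choices. Mettl3 (chr14:52294841-52305124, minus strand), the catalytic subunit, was counted 806 times in replicate 1 and 487 times in replicate 2. Its span TPM was 52.8 and 41.9, a mean of 47.4 ± 7.72 (SD, n = 2), its exonic TPM 41.9 ± 8.34 and its main-transcript TPM 37.3 ± 7.56. Mettl14 (chr3:123368294-123385990, minus strand), the partner that helps bind RNA, had 1610 and 1412 counts. This gave a span TPM of 61.3 and 70.6, a mean of 66.0 ± 6.57 (SD, n = 2), its exonic TPM 27.9 ± 1.77 and its main-transcript TPM 68.4 ± 4.04. Mettl14 was above Mettl3 in both libraries on the span scale, with a log2 ratio of 0.22 in replicate 1 and 0.75 in replicate 2. The order turned on the exonic scale, and the log2 ratio was −0.85 and −0.31. With the main transcript it was 0.62 and 1.16. The annotated exons of Mettl14 inside its span add up to 7256 bases, but its main coding transcript to 2623 bases, whereas both lengths are 2021 bases for Mettl3. Which partner has the higher level per length therefore cannot be stated from these counts.

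Wtap was far above the catalytic pair, and Zc3h13 was below Wtap under each length choice. Wtap (chr17:12966798-12992539, minus strand), the regulatory subunit that keeps the pair in nuclear speckles, had 8602 and 8897 counts. On the span scale it stood at 225 TPM in replicate 1 and 306 in replicate 2, a mean of 266 ± 57.0 (SD, n = 2), its exonic TPM 241 ± 43.2 and its main-transcript TPM 510 ± 89.1. In either library and over 4 length choices (the 3 above and the union of exons also outside the span), Wtap exceeded Mettl3 by 4.26 to 17.9 fold and Mettl14 by 3.67 to 9.48 fold. Zc3h13 (chr14:75284372-75344426, plus strand), which anchors the complex in the nucleus, had 1534 and 1463 counts. Span TPM came to 17.2 and 21.6, a mean of 19.4 ± 3.07, its exonic TPM 32.7 ± 4.0 and its main-transcript TPM 29.1 ± 3.44 (SD, n = 2). Wtap exceeded it by 7.04 to 18.2 fold. Mettl3 was also above Zc3h13 in both libraries under all 4 choices, but by as little as 1.01 fold.

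Of the RBM15 paralogs, which act as alternative adaptors, Rbm15 was the higher in both libraries. Rbm15 (chr3:107326109-107333289, minus strand) had 2400 counts in replicate 1 and 3096 in replicate 2. Its span TPM was 225 and 382, a mean of 303 ± 110 (SD, n = 2), the widest spread of the 10 members, with a coefficient of variation of 36.4%. Its exonic TPM was 115 ± 37.9 and its main-transcript TPM 102 ± 33.2. Rbm15b (chr9:106883984-106887000, minus strand) had 309 and 266 counts. Span TPM came to 69.0 and 78.0, a mean of 73.5 ± 6.35, but its exonic TPM only 12.7 ± 0.640 and its main-transcript TPM 11.3 ± 0.519 (SD, n = 2), because a gene without introns keeps its length while others shorten. Rbm15 exceeded Rbm15b by 3.26 to 17.4 fold over both libraries and all 4 length choices. The 17.4 fold came with the union of exons, which includes uncounted bases. With exons inside the spans the fold was 7.16 in replicate 1 and 10.7 in replicate 2. GENCODE places 3494 exonic bases of Rbm15b and 1072 of Rbm15 outside the counted spans, so fragments there were not counted for either gene. Spen, the larger SPOC relative, had 769 and 400 counts and an exonic TPM of 6.18 ± 1.86 (SD, n = 2), and the log2 ratio of Rbm15 over Spen was 3.55 in replicate 1 and 4.86 in replicate 2 on the exonic scale.

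Among the members, the nuclear reader Ythdc1 was higher than the cytoplasmic reader Ythdf2. Ythdc1 (chr5:86804489-86836657, plus strand), which binds m6A in the nucleus and is known to bind methylated Xist, had 8852 and 9976 counts. Its span TPM was 186 in replicate 1 and 274 in replicate 2, a mean of 230 ± 62.9, its exonic TPM 421 ± 100 and its main-transcript TPM 383 ± 89.7 (SD, n = 2). Ythdf2 (chr4:132184915-132212256, minus strand), which directs methylated mRNA to decay in the cytoplasm, had 3603 and 2950 counts. Its span TPM was 88.8 and 95.5, a mean of 92.2 ± 4.71, its exonic TPM 107 ± 1.59 and its main-transcript TPM 95.1 ± 0.997 (SD, n = 2). Ythdc1 exceeded Ythdf2 by 2.09 to 4.66 fold over both libraries and the 4 length choices, with no overlap on any of them. Of the 50-base words in the longest transcript of Ythdc1, 18.2% also occur in a pseudogene or another gene, as do 9.02% of those of Wtap and 8.55% of those of Ythdf2. For its chromatin RNA libraries the study kept only reads with 1 place in the genome, and whether that held for these mRNA libraries is not given in the sources used here. Reads of such words would then be lost, so these 3 levels are less certain than those of members with few or no shared words.

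Alkbh5 was above Fto, and the size of that gap depended on the length used. Alkbh5 (chr11:60537682-60558512, plus strand) had 3089 and 2434 counts, a span TPM of 100 in replicate 1 and 103 in replicate 2, with a mean of 102 ± 2.44 (SD, n = 2). Fto (chr8:91313524-91668433, plus strand) had 1784 and 1339 counts and a span TPM of 3.39 and 3.34, with a mean of 3.36 ± 0.035. Exons make up 3.48% of the 354910 bases of Fto. On the exonic scale Fto was at 16.8 ± 0.782 and Alkbh5 at 64.1 ± 0.788 TPM, and on the main-transcript scale at 51.7 ± 2.64 and 56.9 ± 0.947 TPM (SD, n = 2). The fold of Alkbh5 over Fto thus ran from 31.0 on the span scale down to 1.08 on the main-transcript scale. Alkbh5 was the higher in both libraries under every choice.

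**Figure D1:**
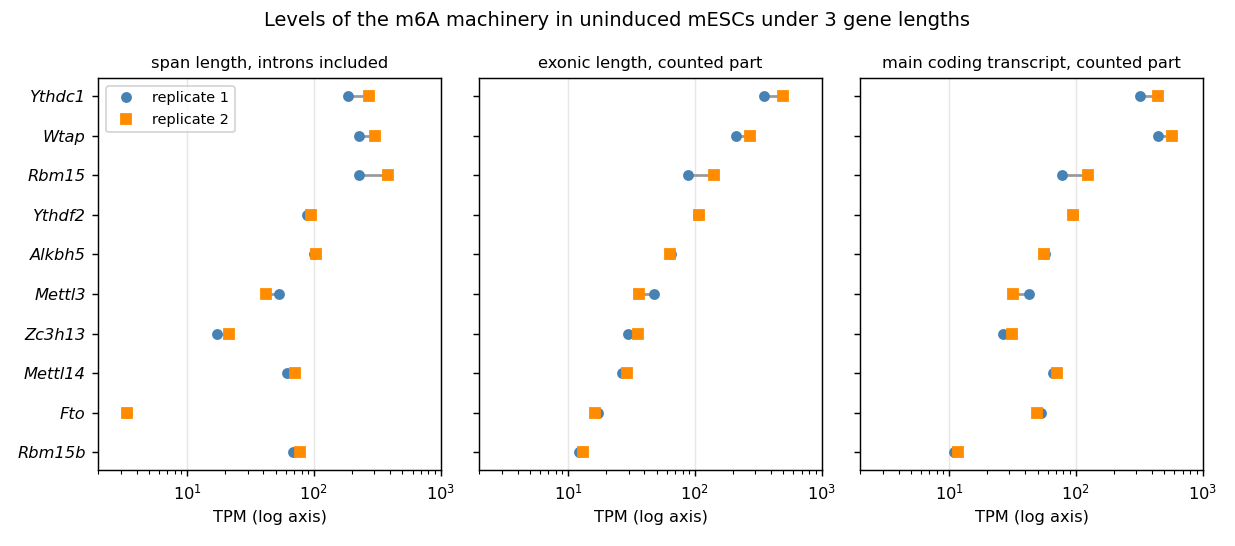
TPM of the 10 members (log axis) with span length, exonic length or main coding transcript length, where circles are replicate 1, squares are replicate 2 and lines join both. Fto moves from 3.36 to 51.7 and Rbm15b from 73.5 to 11.3 mean TPM between the first and last panels, while Wtap and Ythdc1 stay among the top 3 in each.

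**Figure D2:**
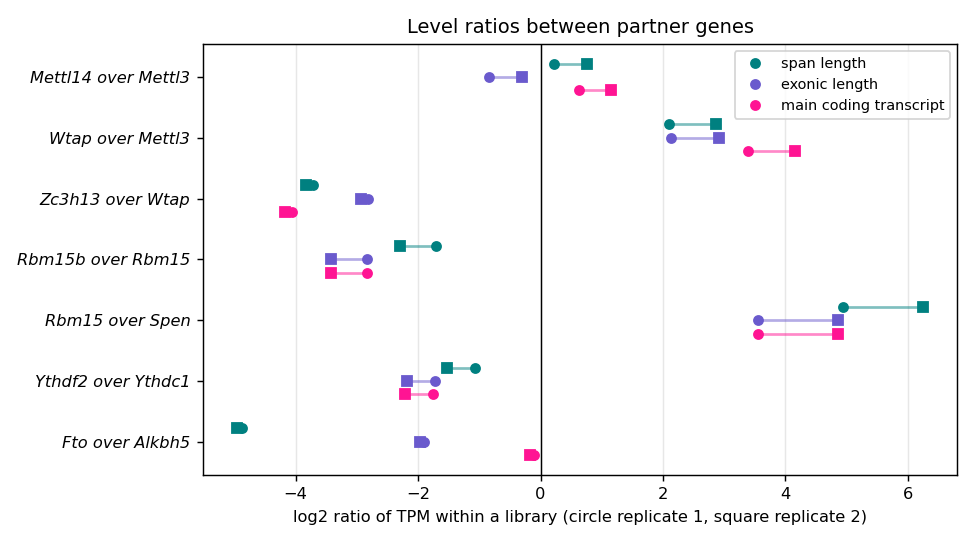
Log2 ratio of TPM between partner genes within each library, under 3 lengths, with circles for replicate 1 and squares for replicate 2. Mettl14 over Mettl3 lies on both sides of 0, and Fto over Alkbh5 runs from −4.95 to −0.10.

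The order of members by span TPM was Rbm15, Wtap, Ythdc1, Alkbh5, Ythdf2, Rbm15b, Mettl14, Mettl3, Zc3h13 and Fto. The 9 neighbouring pairs in this order did not overlap between libraries in 6 cases. Rbm15 and Wtap, Wtap and Ythdc1, and Rbm15b and Mettl14 did overlap. By exonic TPM the order was Ythdc1, Wtap, Rbm15, Ythdf2, Alkbh5, Mettl3, Zc3h13, Mettl14, Fto and Rbm15b, and only Rbm15 and Ythdf2 of its 9 neighbouring pairs overlapped. Of 45 pairs of members, 31 had the same order in both libraries under all 4 length choices. No member was above Wtap, Ythdc1 or Rbm15 in all of them, and no member was below Zc3h13, Rbm15b or Fto in all of them. An exact permutation of 2 against 2 values gives a two-sided p of at least 0.333, so no test of the order was made, and it is a description.

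Compared with the transcriptome, the members were mostly in the upper part. Among 11877 genes with a mean span TPM of at least 1, their median percentile was 83.0, from 21.9 for Fto to 95.5 for Rbm15. Their median level was 82.9 TPM, against 13.5 TPM over those genes. On the exonic scale the median percentile was 70.1, from 42.9 for Rbm15b to 96.8 for Ythdc1, and the median level 53.0 against 18.5 TPM. All 10 members had an exonic TPM of at least 10, and 9 of them a span TPM of at least 10. Together they took a share of 0.137% of all counted fragments in replicate 1 and 0.159% in replicate 2.

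The libraries differed at most member genes, as they did at most genes tested. When each pair of counts was set against the library totals in an exact binomial test (two-sided), with Benjamini-Hochberg adjustment over 14536 genes, 7 of 10 members passed an adjusted p of 0.05, beside 60.8% of all genes tested. Members were higher in replicate 2 in 4 cases, where the background was 15.1%, and lower in 3 cases, where it was 45.7%. Their median log2 ratio of replicate 2 over replicate 1 was 0.02, and that of all tested genes −0.31. With TMM factors in place of library totals, 7 members were higher and 1 was lower, where 57.8% of genes were called (27.0% higher, 30.7% lower). With DESeq2 size factors all 10 passed, 9 higher and 1 lower, where 57.8% of genes did (31.6% higher, 26.1% lower). The median log2 ratio of all tested genes was −0.08 with TMM factors and 0.0033 with size factors. The test sets a difference against counting error alone and compares 2 libraries of 1 condition, and whether the members differ in direction from other genes was not tested. In bulk RNA, fewer cells that express a gene and less of its RNA per cell cannot be told apart.

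Relative to the library totals, Rbm15 had the highest log2 ratio of the members and Mettl3 the lowest. Rbm15 was at 101 CPM in replicate 1 and 153 CPM in replicate 2, 1.51-fold higher (log2 0.59, 95% counting interval 0.52 to 0.67, adjusted p = 8.09e-51 by the exact binomial test). Ythdc1 was at 373 and 492 CPM (log2 0.40, adjusted p = 1.89e-78, exact binomial test) and Wtap at 363 and 439 CPM (log2 0.27, adjusted p = 3.23e-35). Zc3h13 was at 64.7 and 72.2 CPM (log2 0.16, exact binomial adjusted p = 0.00562). Mettl3 was at 34.0 CPM in replicate 1 and 24.0 CPM in replicate 2 (log2 −0.50, interval −0.67 to −0.34, exact binomial adjusted p = 4.38e-09). With TMM factors its log2 ratio was −0.28, and those of Ythdc1, Wtap and Zc3h13 were 0.62, 0.50 and 0.38. Over the 9736 genes counted 50 times or more in both libraries, the SD of the log2 ratio was 0.53. In absolute size the log2 ratio of Rbm15 exceeded that of 75.3% of these genes, that of Mettl3 69.1% and that of Ythdc1 60.3%. With its sign, the ratio of Rbm15 exceeded 99.0% of them, that of Ythdc1 94.8% and that of Mettl3 28.5%. The erasers were also lower in replicate 2, Fto with a log2 ratio of −0.19 and Alkbh5 of −0.12 (exact binomial adjusted p = 0.000711 and 0.00523). This direction rests on the library totals. Alkbh5 passed as higher in replicate 2 with TMM factors (log2 0.11), with DESeq2 size factors (0.19) and relative to the GC trend (0.30), where the exact binomial adjusted p was 0.0127, 2.37e-06 and 2.55e-13. Fto was above 0 under the same choices (0.04, 0.12 and 0.10) and passed with size factors alone (exact binomial adjusted p = 0.0325). The 3 members that did not pass were Mettl14 (log2 0.04, interval −0.07 to 0.14), Rbm15b (0.01, −0.23 to 0.25) and Ythdf2 (−0.06, −0.13 to 0.01). Rbm15b had the fewest counts, and with library totals its interval still allows a difference of 0.25 on the log2 scale. Its log2 ratio was 0.32 with size factors and 0.75 relative to the GC trend (exact binomial adjusted p = 0.0163 and 4.71e-09).

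GC content moved with the difference between the libraries. Over the 9241 autosomal genes that had 50 or more counts in both libraries, the log2 ratio had a Spearman correlation of −0.66 with the GC content of the longest transcript, a description across genes that share both libraries. Member transcripts ran from 39.6% GC for Wtap to 56.4% for Rbm15b. A cubic trend over the autosomal genes put the expected log2 ratio at 0.27 for Wtap, where 0.27 was measured, and at −0.43 for Mettl3, where −0.50 was measured. Relative to that trend neither passed the test (log2 0.01 and −0.07, exact binomial adjusted p = 0.893 and 0.548). Rbm15 stood furthest from the trend, with −0.60 expected and 0.59 measured, a residual of 1.19 that exceeded 99.8% of the 9736 genes counted 50 times or more in both libraries. Rbm15b (0.75), Zc3h13 (0.58), Ythdc1 (0.45) and Alkbh5 (0.30) were also above the trend and Mettl14 (−0.15) was below it. GC content was taken over the whole longest transcript, whether or not its bases were counted. Rbm15b has 3494 and Rbm15 1072 exonic bases outside the counted spans, so their expected ratios are less certain. Relative to the trend 6 of 10 members passed, 5 higher and 1 lower, where 44.3% of all genes did (22.9% higher, 21.4% lower). What sets Rbm15 apart from genes of like GC content was not tested.

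**Figure D3:**
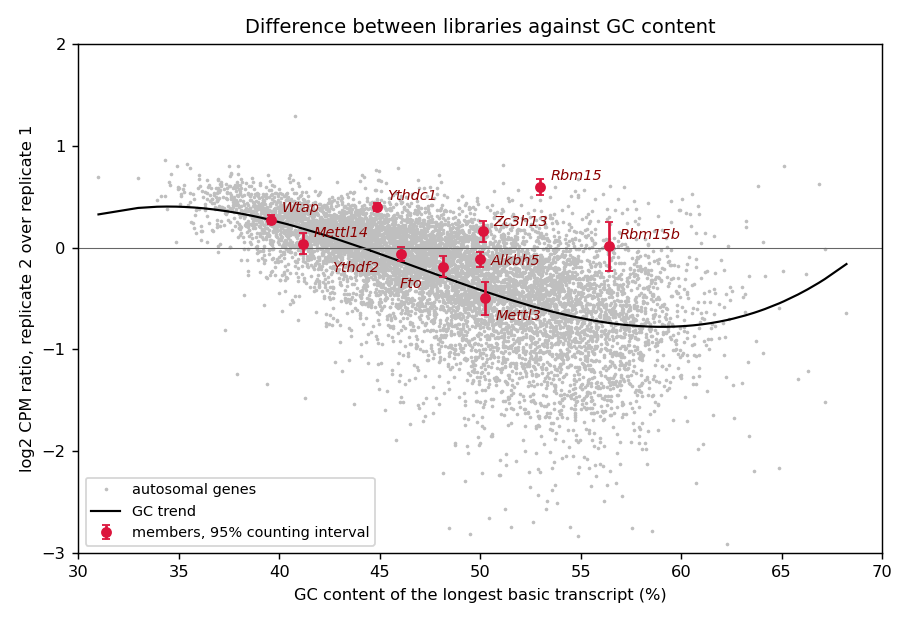
Log2 CPM ratio of replicate 2 over replicate 1 against GC content for autosomal genes counted 50 times or more in both libraries (grey), the cubic trend (black) and the 10 members (red, with 95% counting intervals). Wtap and Mettl3 lie on the trend, and Rbm15 lies 1.19 above it.

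Of 24 other genes of the pathway, 20 had an exonic TPM of at least 10. The remaining writer subunits were of the same order as the catalytic pair, Cbll1 (the HAKAI ubiquitin ligase) at 38.6 ± 10.1 TPM and Virma, listed under its older symbol 1110037F02Rik, at 29.5 ± 2.46 TPM (SD, n = 2, exonic length). The paralogs of the readers were also well measured, with Ythdf3 at 292, Ythdf1 at 140 and Ythdc2 at 68.7 TPM. Ythdf2 was thus below both other Ythdf genes in the mean, at 107 TPM. Its replicates of 106 and 108 TPM did not overlap those of Ythdf1, 134 and 146 TPM, or those of Ythdf3, 230 and 354 TPM. In the mean, Ythdf3 was below Ythdc1 (421 TPM) on the exonic scale but above it on the span scale, at 265 against 230 TPM. Genes of proteins that bind RNA more widely and have been linked to m6A were the highest, Hnrnpa2b1 at 1092, the X-linked Fmr1 at 737 and Hnrnpc at 478 TPM. Of the 50-base words of Hnrnpc 12.3% are shared elsewhere, so its level is less certain. On the span scale Mat2a, at 793 TPM, was above Fmr1 at 483 and Hnrnpc at 366 TPM. On the exonic scale the X-linked Rbmx was at 87.9, Igf2bp2 at 79.0, Igf2bp3 at 76.0, Igf2bp1 at 61.5 and Prrc2a at 8.27 TPM. Prrc2a lay on both sides of 10 TPM, with 11.6 in replicate 1 and 4.90 in replicate 2.

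Methyltransferases with other RNA targets were led by Mettl5, which modifies ribosomal RNA, at 304 TPM. Mettl4 was at 100, Mettl16 at 92.7 and Zcchc4 at 62.5 TPM, but with the union of exons at 38.9, 22.9 and 19.6 TPM. GENCODE places 4616, 9865 and 4866 of their exonic bases outside the counted spans. Mettl4 and Mettl16 overlapped, at 92.7 against 94.9 TPM in replicate 1 and 107 against 90.5 TPM in replicate 2. Pcif1, which methylates the base next to the mRNA cap, was at 4.81 TPM, with 6.58 in replicate 1 and 3.04 in replicate 2. Trmt112, the small cofactor that METTL5 needs, had only 4 counts in replicate 1 and 1 in replicate 2. Of its 50-base words 35.1% are shared with pseudogenes, so its level is uncertain, and why its counts were so low was not tested. For the methyl donor, Mat2a and Mat2b, the subunits that make S-adenosylmethionine, were at 274 and 212 TPM, and Ahcy, which clears its product, at 40.2 TPM with 77.0% of its words shared elsewhere. Cnot1, the deadenylase scaffold that YTHDF2 recruits, was at 303 TPM. Of its words 9.04% are shared elsewhere, as are 6.53% of those of Mat2a, so these levels are also less certain. Between libraries, 23 of the 24 could be tested and 16 passed by the exact binomial test, 7 higher and 9 lower in replicate 2. The background was again 60.8%, with 15.1% of genes higher and 45.7% lower. With TMM factors the split was 14 higher and 4 lower, beside 27.0% and 30.7% of genes. With DESeq2 size factors it was 18 and 3, beside 31.6% and 26.1%, and relative to the GC trend 11 and 7, beside 22.9% and 21.4%. The median exonic TPM of these 24 genes was 83.4 and that of the 10 members 53.0, but on the span scale the order turned, with 60.8 against 82.9 TPM.

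**Figure D4:**
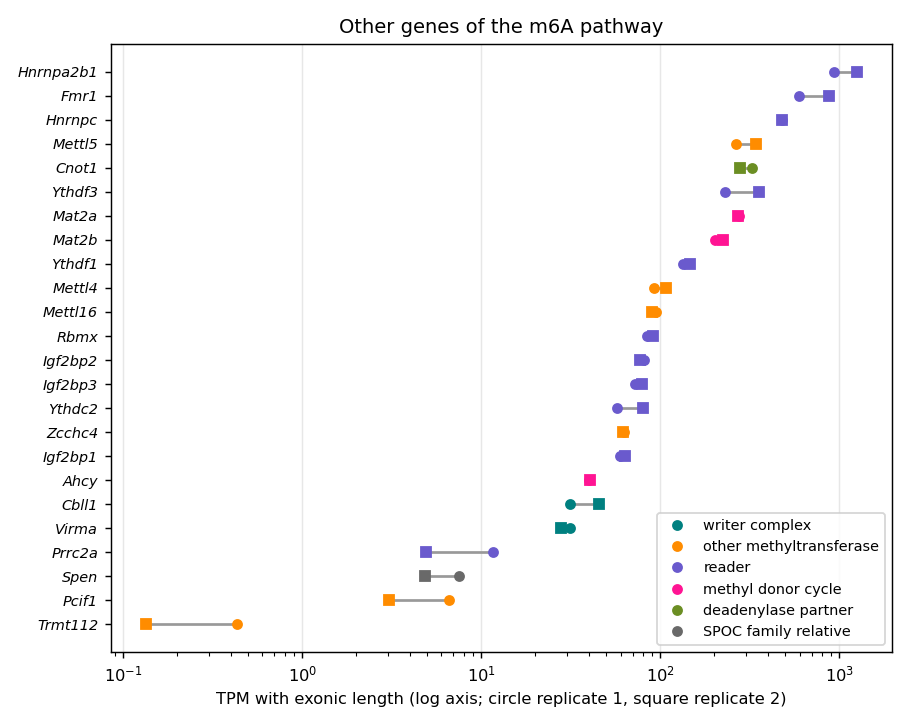
Exonic TPM (log axis) of 24 other genes of the pathway, coloured by class, with circles for replicate 1 and squares for replicate 2. Hnrnpa2b1 lies highest at a mean of 1092 TPM, and Trmt112 lowest at 0.284 TPM.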

How the data were processed

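Polyadenylated RNA was captured on Dynabeads and made into stranded TruSeq libraries, and 2 uninduced replicates, numbered as in the labels, were used. Per the file headers, the authors made the deposited counts with featureCounts (version 1.5.2), in paired, reverse-stranded mode over transcript features of an mm10 annotation of non-redundant long RNAs, so fragments in introns counted for their gene. The deposited length column equals the union of transcript spans. The submitters' processing notes list Bowtie2 2.3.2 and STAR 2.4.2a, and the methods give rRNA removal with Bowtie2 and STAR alignment of unique hits for chromatin RNA; whether these mRNA libraries were treated alike is not given in the sources used here. Sample descriptions carry a letter that the column names lack, and columns were matched by the rest of the name. From the deposited counts, TPM was computed with each gene length (other pathway genes are given on the exonic scale); exons came from GENCODE M21 basic annotation (GRCm38), with 21258 genes found under their symbol and 879 under an older one. Genes with fewer than 10 counts in total were not tested. Log2 ratios between replicates added 0.5 counts. With 1 group there is no contrast for edgeR (4.0.16), used for TMM factors, nor for DESeq2 (1.42.0), used for size factors, under R 4.3.3. The binomial test was run with scipy 1.17.1 and tested on simulated counts. These held counting error and set folds only, without other variation between libraries, so they do not show how the test behaves on the real libraries. Named genes were all members, all 24 companion genes, Nanog and the markers of other cell types above 10 TPM. Other markers are named for values at or near 0, and Pou5f1 and Dppa5a were named after their values were seen. The members and lists were chosen with earlier results of these data known.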

Additional observations from a re-analysis of the deposited data

How the results depend on the processing

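Gene length moved levels most. The median member level, 82.9 with span length, was 58.7 with the union of exons, 53.0 with exons inside the span, 62.7 with the main transcript and 97.9 as CPM. That of the 24 companion genes, 60.8, was 76.1, 83.4, 88.0 and 104 in the same order. The median percentile of members, 83.0, was 72.0, 70.1, 73.4 and 78.5, and 88.6 among all genes with at least 1 count. Leaving out either replicate gave 78.9 to 86.8, 52.5 to 67.1 and 82.6 to 83.1 for these 3 values. The lengths inside the span and of the main transcript were added once results were in view. For Mettl14 over Mettl3, the log2 ratio turned from 0.48 to −0.60 with the union of exons and to −0.58 with exons inside the span. Between replicates, the log2 ratio turned sign for Ythdf2 (0.16 with TMM, 0.25 with DESeq2 size factors and 0.076 relative to the GC trend), Alkbh5 (0.11, 0.19 and 0.30 in the same order), Fto (0.037, 0.12 and 0.10) and Mettl14 (−0.15 relative to the GC trend). Members that passed numbered 8 with TMM, 10 with size factors (9 higher) and 6 with the GC trend, against 7. The causes were not tested. Of 201 alternative values over 34 results, 12 turned direction and 70 moved by more than the spread between replicates. Among 50 alternative values of the member ratios between replicates, 7 gained the call (Mettl14 with TMM, size factors and the GC trend, Ythdf2 with TMM and size factors, Rbm15b with size factors and the GC trend) and 4 lost it (Mettl3, Wtap and Fto with the GC trend, Fto with TMM). A further 4 passed in the direction opposite to that with library totals (Alkbh5 with TMM, size factors and the GC trend, Fto with size factors). No paired analysis was possible because there is only 1 group. With 2 libraries the SD is itself poorly known, and intervals cover counting error only.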
